A study of Mus musculus with 18 samples.

Results

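Genes of the Notch pathway were described in mouse tail tendon fibroblasts (TFs): the receptors Notch1, Notch2, Notch3 and Notch4, the ligands Jag1, Jag2, Dll1 and Dll4, and the target genes Hes1 and Hey1. The 10 members were chosen by gene symbol, and each was found once among the 55491 genes of the count table. Poly-A RNA was sequenced from 18 libraries in 6 groups of 3, after 4 days of culture in either 20% O2 or 1% O2. Ctrl TFs were labelled wild-type and came from Cre-negative mice of the colony, which the paper's methods give as Hif1a flox/flox. TFs labelled cKO came from Hif1a flox/flox;ScxCre mice, in which Cre is constitutive and is driven by Scx, so that recombination is limited to cells that have expressed Scx. The gesicle groups were TFs labelled wild-type that received Cre gesicles, which are vesicles that carry Cre protein. All mice had a mixed C57BL6J/129S1 background, and TFs grown out of collagen gels from tails of male and female mice (n = 3) aged 4 to 6 months were passaged before seeding. The labels do not name the mouse of a library, and libraries of different groups may share a mouse.

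Hif1a itself (chromosome 12, 73901375 to 73947530, plus strand, GRCm38) was not lower in the libraries labelled cKO. Its level ranged from 334 to 373 CPM (read counts scaled to the same library total with TMM factors) in Ctrl TFs in 20% O2 and from 367 to 488 CPM in 1% O2, against 287 to 430 CPM and 401 to 507 CPM where the label was cKO. In the gesicle groups it ranged from 341 to 409 CPM and from 375 to 394 CPM. These counts sum all exons of the gene, so they do not show whether the floxed part was lost. By qPCR, after a longer culture than here, the paper reports reduced Hif1a in tail TFs of the knockout mice. A count for the Cre transgene was present in 5 of the 6 libraries labelled cKO, with at most 5 reads, and in 0 of the other 12 libraries. Library totals ranged from 6857558 counts (cKO in 1% O2, replicate 1) to 51806453 counts, and the 17 libraries other than the shallowest held at least 26967440. A total of 3 counts, taken here as the limit that a count of 0 allows, corresponded to 0.0579 to 0.437 CPM, and such limits cover counting error only. Counts of Xist and of Y-linked genes showed male RNA in replicate 1 of the Ctrl and gesicle groups and in replicates 2 and 3 of the cKO groups, with female RNA in the others, in both O2 levels.

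Notch receptors are single-pass membrane proteins that are activated by ligands on a neighbouring cell. Ligand binding exposes the receptor to an ADAM protease and then to gamma-secretase, and the released intracellular domain enters the nucleus, binds RBPJ and its MAML coactivator, and turns on target genes such as those of the HES and HEY families of transcriptional repressors. In connective tissue the pathway is known for its part in vessel wall cells and in holding back skeletal progenitors, and active HIF-1α has been described to meet the Notch intracellular domain at target promoters.

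The members were expressed over a wide range of levels. Per kilobase of exon, the mean over the 6 groups was 18.8 CPM per kb for Hes1, 3.47 CPM per kb for Jag1, 1.45 CPM per kb for Notch2, 0.831 CPM per kb for Notch3 and 0.382 CPM per kb for Notch1. Hey1 followed at 0.252 CPM per kb, Dll1 at 0.205 CPM per kb, Notch4 at 0.138 CPM per kb, Jag2 at 0.0212 CPM per kb and Dll4 at 0.000761 CPM per kb. Hes1 thus led the list, Jag1 was the leading ligand and Notch2 the leading receptor. Hes1 lay above Jag1 without overlap in each of the 6 groups. In Ctrl TFs in 20% O2 the order below Hes1 was also separated, and Dll1 and Notch4 were the only neighbours whose libraries overlapped. In the other 5 groups most neighbours below Hes1 overlapped, so that the order of Jag1, Notch2, Notch3 and Notch1 was not separated beyond the spread between replicates in the Ctrl 1% O2 group or in either gesicle group.

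**Figure D1:**
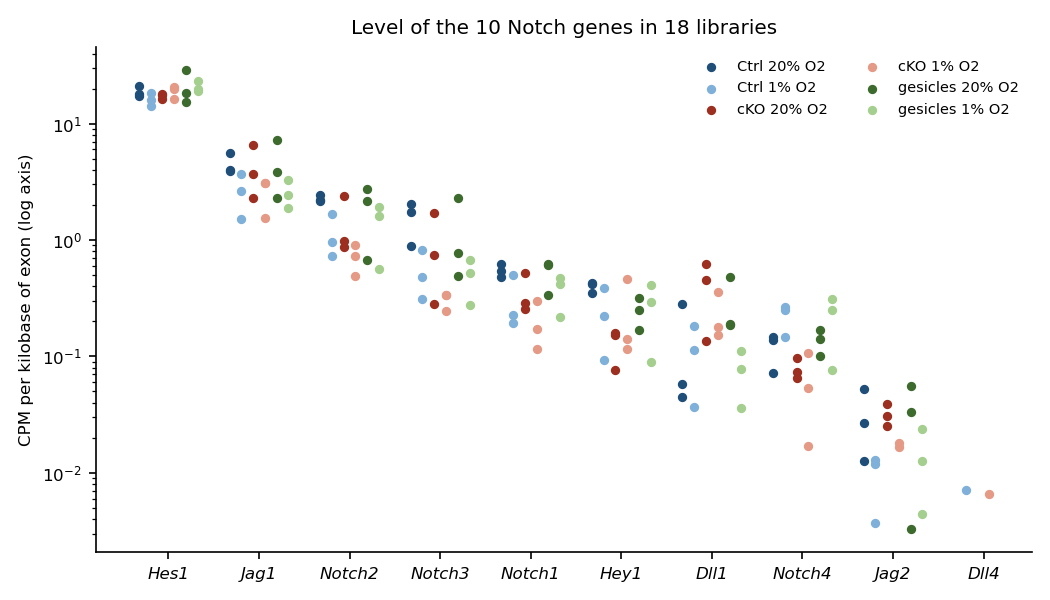
Level of the 10 members in the 18 libraries, in CPM per kb of exon on a log axis, with 1 point per library, coloured by group. Hes1 sits highest, between 14.3 and 28.9 CPM per kb, Jag1 and Notch2 follow, and libraries at 0 (1 for Jag2, 16 for Dll4) are not drawn.

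Notch1 encodes a broadly used receptor of the family. It lies on chromosome 2, 26457903 to 26516663 (minus strand, GRCm38), and its exons cover 14232 bp. Its level was 8.84, 6.84 and 7.69 CPM in Ctrl TFs in 20% O2 and 2.76, 7.10 and 3.25 CPM in 1% O2. Libraries labelled cKO had 7.37, 3.60 and 4.09 CPM in 20% O2 and 1.64, 2.43 and 4.23 CPM in 1% O2. With gesicles it was 4.78, 8.79 and 8.63 CPM in 20% O2 and 6.72, 5.93 and 3.09 CPM in 1% O2. Replicate 2 of Ctrl in 1% O2 stayed within the 20% O2 range, and the 20% and 1% O2 libraries overlapped in all 3 kinds of cells.

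Notch2 was the most abundant receptor per kilobase. It spans chromosome 3, 98013527 to 98150361 (plus strand), with 10782 bp of exon. Ctrl TFs held 23.4, 23.6 and 26.3 CPM in 20% O2 and 7.89, 18.2 and 10.4 CPM in 1% O2. The libraries labelled cKO held 25.6, 9.31 and 10.6 CPM in 20% O2 and 5.34, 7.85 and 9.77 CPM in 1% O2. Gesicle-treated TFs held 7.19, 23.3 and 29.4 CPM in 20% O2 and 17.3, 20.7 and 6.09 CPM in 1% O2. All 3 Ctrl libraries in 1% O2 were below all 3 in 20% O2. Among the libraries labelled cKO in 20% O2, replicate 1 was at the Ctrl level and replicates 2 and 3 were well below it.

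Notch3, a receptor best known from smooth muscle and pericytes of the vessel wall, spans chromosome 17, 32120820 to 32166852 (minus strand), with 8089 bp of exon. It reached 14, 7.13 and 16.5 CPM in Ctrl TFs in 20% O2 and 2.54, 6.68 and 3.92 CPM in 1% O2. It reached 13.8, 2.29 and 5.99 CPM with the cKO label in 20% O2 and 2.74, 1.97 and 2.72 CPM in 1% O2. In gesicle-treated TFs it reached 3.93, 6.21 and 18.6 CPM in 20% O2 and 4.22, 5.44 and 2.24 CPM in 1% O2. The Ctrl libraries in 1% O2 were again all below those in 20% O2, although the margin between the nearest libraries was small. The gesicle libraries in 20% O2 spread as widely as those labelled cKO.

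Notch4, a receptor known mainly from endothelium, lies on chromosome 17, 34564268 to 34588503 (plus strand), with 8061 bp of exon, and its level was low. Ctrl TFs held 1.18, 1.12 and 0.582 CPM in 20% O2 and 2.01, 2.13 and 1.19 CPM in 1% O2. The libraries labelled cKO held 0.779, 0.522 and 0.588 CPM in 20% O2 and 0.137, 0.435 and 0.856 CPM in 1% O2, which were 1, 15 and 34 reads in 1% O2. Gesicle-treated TFs held 0.804, 1.36 and 1.14 CPM in 20% O2 and 2.5, 2.03 and 0.612 CPM in 1% O2. It was the only receptor whose Ctrl libraries were all higher in 1% O2 than in 20% O2, by a small margin. In 1% O2 the 3 libraries labelled cKO were all below the 3 Ctrl libraries, and the lowest of them was the shallow library.

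Because Notch1, Notch2, Notch3 and Jag1 varied together across libraries, their RefSeq promoter sequences are shown to let the upstream bases be compared. Each run is read 5′ to 3′ on the strand of the gene in GRCm38.p6, and capitals mark the core letters of the HIF response element, ACGTG or GCGTG, or their reverse complements CACGT and CACGC. The windows are chr2:26503825-26504072 (minus strand) for Notch1, chr3:98013288-98013526 (plus strand) for Notch2, chr17:32166891-32167140 (minus strand) for Notch3 and chr2:137116645-137116770 (minus strand) for Jag1, each being the part of the 250 bases before a RefSeq start that lies outside the annotated exons of the gene. The RefSeq start used for Notch1 lies inside the gene as annotated by GENCODE.
Notch1: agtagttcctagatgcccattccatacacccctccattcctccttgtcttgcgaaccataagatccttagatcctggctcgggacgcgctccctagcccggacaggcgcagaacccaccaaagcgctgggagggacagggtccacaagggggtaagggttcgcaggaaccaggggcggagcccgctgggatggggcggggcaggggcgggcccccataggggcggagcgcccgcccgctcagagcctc
Notch2: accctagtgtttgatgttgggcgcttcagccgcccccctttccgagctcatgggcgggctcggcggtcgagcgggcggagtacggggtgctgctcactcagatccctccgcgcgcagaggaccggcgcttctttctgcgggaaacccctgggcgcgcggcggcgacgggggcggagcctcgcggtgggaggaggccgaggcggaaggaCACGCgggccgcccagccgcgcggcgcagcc
Notch3: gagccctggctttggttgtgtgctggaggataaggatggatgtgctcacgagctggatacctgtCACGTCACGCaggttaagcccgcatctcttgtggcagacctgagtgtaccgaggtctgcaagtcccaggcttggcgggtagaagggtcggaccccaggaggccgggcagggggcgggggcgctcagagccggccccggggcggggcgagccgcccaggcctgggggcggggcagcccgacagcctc
Jag1: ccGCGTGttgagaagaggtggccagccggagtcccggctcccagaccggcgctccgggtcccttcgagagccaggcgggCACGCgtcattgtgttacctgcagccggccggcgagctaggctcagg
Over the full 250 bases, GCGTG was matched on either strand in Notch2, Notch3 and Jag1 and not in Notch1, while 28.2% of 32851 mouse promoters of the same length held it. ACGTG was matched in Notch3 only, directly beside the GCGTG match, against 16.6% of all promoters. Notch4, Jag2, Dll1 and Dll4 also held GCGTG. For the genes shown, GC content over the 250 bases was 66.0% (Notch1), 72.0% (Notch2), 68.8% (Notch3) and 57.2% (Jag1). The shares of all promoters were not matched for GC content, and enrichment of these words in the members was not tested. The core of the RBPJ site, TGGGAA, was matched in none of the 8 members with a promoter in the table, against 21.6% of all promoters. Hes1 and Hey1 were not matched to the table.

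Jag1, the ligand with most reads, lies on chromosome 2, 137081456 to 137116644 (minus strand), with 5827 bp of exon. In Ctrl TFs it was at 23.2, 22.7 and 32.5 CPM in 20% O2 and at 8.83, 21.5 and 15.4 CPM in 1% O2. In the libraries labelled cKO it was at 38.2, 13.4 and 21.5 CPM in 20% O2 and at 9.03, 18.1 and 17.9 CPM in 1% O2. With gesicles it was at 13.5, 22.3 and 42.0 CPM in 20% O2 and at 19.1, 14.3 and 11.1 CPM in 1% O2. The Ctrl libraries did not overlap between the O2 levels, and those labelled cKO and those with gesicles did. Jag1 differed most among the 20% O2 libraries of these last groups.

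Dll1, a Delta-type ligand on chromosome 17, 15367354 to 15376872 (minus strand), was low and uneven. Its level was 0.187, 1.18 and 0.245 CPM in Ctrl TFs in 20% O2 and 0.772, 0.479 and 0.155 CPM in 1% O2. It was 1.91, 0.571 and 2.64 CPM with the cKO label in 20% O2 and 1.51, 0.638 and 0.756 CPM in 1% O2. With gesicles it was 0.781, 2.04 and 0.792 CPM in 20% O2 and 0.465, 0.328 and 0.153 CPM in 1% O2. Only the gesicle groups were separated by O2 level, with all 3 libraries in 1% O2 below those in 20% O2. Replicate 2 of Ctrl in 20% O2 was well above its own group and inside the range of the libraries labelled cKO.

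Jag2 and Dll4 were at or near the detection limit. Jag2 (chromosome 12, 112907819 to 112929776, minus strand) had 102 reads over the 18 libraries, at most 19 in any of them and 0 in 1. Its group means in 20% O2 were 0.215 CPM in Ctrl, 0.219 CPM in cKO and 0.213 CPM with gesicles. In 1% O2 the means were lower, at 0.0661, 0.0806 and 0.0939 CPM in the same order, from at most 5 reads in a library. Dll4, the ligand best known from sprouting vessels (chromosome 2, 119325784 to 119335962, plus strand), had 1 read in replicate 1 of Ctrl in 1% O2, 1 read in replicate 3 of cKO in 1% O2 and 0 in the other 16 libraries. Neither Jag2 nor Dll4 passed the filter on low counts, and the main fits made no test of them.

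Hes1, a repressor of the basic helix-loop-helix family and a direct target of Notch signalling, lies on chromosome 16, 30064384 to 30067796 (plus strand). It was at 43.0, 36.3 and 35.5 CPM in Ctrl TFs in 20% O2 and at 29.1, 32.6 and 37.3 CPM in 1% O2. It was at 33.0, 36.9 and 35.9 CPM with the cKO label in 20% O2 and at 33.0, 40.8 and 42.0 CPM in 1% O2. With gesicles it was at 58.9, 37.4 and 31.2 CPM in 20% O2 and at 40.1, 39.0 and 47.4 CPM in 1% O2. Its libraries stayed within a narrow range apart from replicate 1 of the gesicle group in 20% O2, which was the highest of the 18.

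Hey1, a related repressor on chromosome 3, 8663359 to 8667256 (minus strand), was far less abundant. It was at 1.15, 1.39 and 1.38 CPM in Ctrl TFs in 20% O2 and at 0.303, 1.26 and 0.722 CPM in 1% O2. It was at 0.496, 0.248 and 0.520 CPM with the cKO label in 20% O2 and at 1.51, 0.464 and 0.378 CPM in 1% O2. With gesicles it was at 1.03, 0.816 and 0.548 CPM in 20% O2 and at 0.291, 1.34 and 0.949 CPM in 1% O2. In 20% O2 every library labelled cKO was below every Ctrl library. The 1.51 CPM of cKO in 1% O2 rested on 11 reads of the shallow library, and the other libraries of that group were like those in 20% O2.

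**Figure D2:**
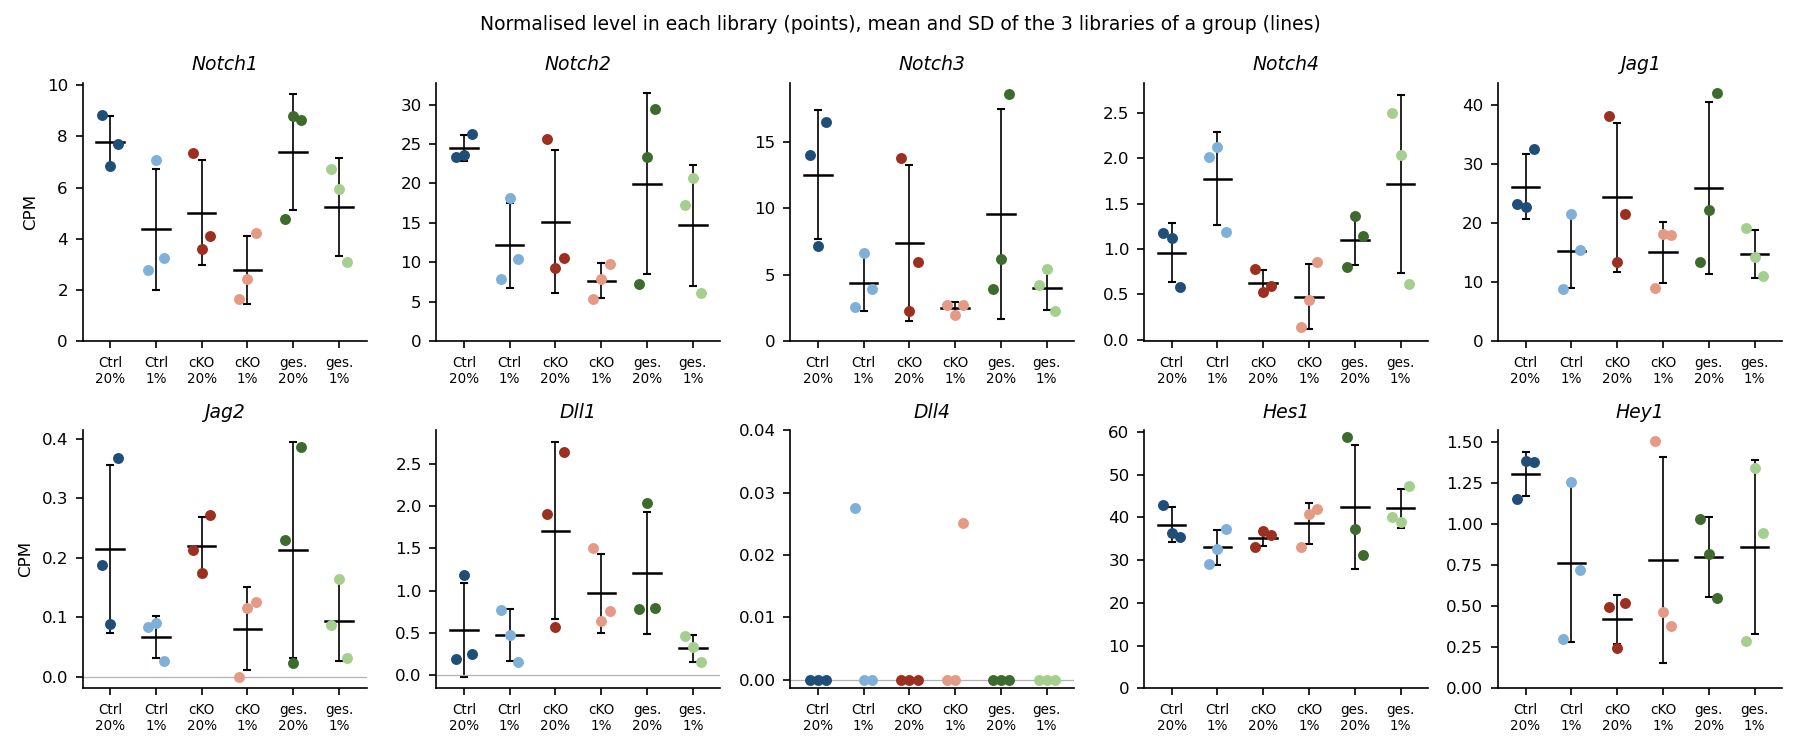
Level of each of the 10 members in CPM (linear axes, with a scale of its own for each gene) in the 18 libraries, by group, with 1 point per library in the order of the replicate numbers and lines for the mean and SD of the 3 libraries of a group (no lines for Dll4). Notch2 and Notch3 are lower in 1% O2 than in 20% O2 in all Ctrl libraries, and Hey1 in 20% O2 is lower in the 3 libraries labelled cKO than in the 3 Ctrl libraries.

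The first comparison asked how the members responded to low O2 in Ctrl TFs. The estimates of Notch1, Notch2, Notch3, Jag1 and Hey1 were lower in 1% O2 than in 20% O2, that of Notch4 was higher, and 0 of the 8 members tested were called by edgeR, where a call needed a fold change of 1.5 or more with an adjusted p under 0.05, and 1.88% of the 15850 genes tested were called. The log2 difference was -0.83 for Notch1 (SE 0.400, adjusted p = 0.338 by edgeR), -1.0 for Notch2 (SE 0.379, adjusted p = 0.222 by edgeR) and -1.51 for Notch3 (SE 0.544, adjusted p = 0.197 by edgeR). For Notch2 and Notch3 the unadjusted 95% interval lay below 0, from -1.82 to -0.17 and from -2.70 to -0.33, and these were the 2 of 8 members with an unadjusted p under 0.05, a share that 16.1% of all genes reached. Notch4 had a log2 difference of 0.89 (95% interval -0.09 to 1.87) and Jag1 of -0.77 (95% interval -1.61 to 0.07). The libraries did not overlap for 3 members that were lower (Notch2, Notch3 and Jag1) and 1 that was higher (Notch4), as they did not for 13.5% and 16.6% of all genes. Of the targets, Hes1 had a log2 difference of -0.21 (95% interval -0.50 to 0.09), which is under the fold change minimum over its whole interval, and Hey1 of -0.77 (95% interval -2.00 to 0.45). Dll1 had an interval that spanned -1.92 to 1.53. DESeq2 called 0 members, and limma with sample quality weights called 3 (Notch1, Notch2 and Notch3) among 1543 genes in all. When the replicate number entered as a block, edgeR called 0 members and DESeq2 called 2 among 937 genes in all, Notch2 (-1.11, adjusted p = 0.035 by DESeq2) and Notch3 (-1.58, adjusted p = 0.00996 by DESeq2). The median log2 difference of the 8 members was -0.77, and that of all genes was 0.000196.

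In the libraries labelled cKO the estimates of Notch1, Notch2 and Notch3 were close to those in Ctrl, and that of Notch4 had the opposite sign. The log2 difference between 1% and 20% O2 was -0.80 for Notch1 (SE 0.412), -0.95 for Notch2 (SE 0.387, adjusted p = 0.205 by edgeR) and -1.58 for Notch3 (SE 0.572, adjusted p = 0.163 by edgeR). It was -0.67 for Jag1 (95% interval -1.52 to 0.17), -0.22 for Notch4 (95% interval -1.28 to 0.85) and -0.93 for Dll1 (95% interval -2.62 to 0.76). Hes1 had a log2 difference of 0.13 (95% interval -0.17 to 0.43) and Hey1 of 0.66 (95% interval -0.71 to 2.04). Again 0 of 8 members were called by edgeR, against 2.1% of all genes, 2 (Notch2 and Notch3) had an unadjusted p under 0.05, against 19.8%, and 0 had libraries that did not overlap, against 9.09% lower and 10.9% higher. With DESeq2 Notch3 was called (log2 difference -1.58, adjusted p = 0.0419 by DESeq2) among 888 genes in all, and the call was lost with the replicate block (-1.20, adjusted p = 0.0757 by DESeq2). Without replicate 2 of cKO in 20% O2 edgeR called it too (-2.00, adjusted p = 0.0268 by edgeR), among 1373 genes, while limma with sample quality weights called Notch3 and Dll1 among 2718 genes. The members' median was -0.73, beside -0.03 for all genes.

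The response to O2 was not shown to differ between Ctrl TFs and those labelled cKO. The difference of the log2 differences, cKO minus Ctrl, was 0.03 for Notch1 (95% interval -1.22 to 1.28), 0.05 for Notch2 (-1.13 to 1.22) and -0.06 for Notch3 (-1.74 to 1.61). It was -1.10 for Notch4 (95% interval -2.55 to 0.34), 0.34 for Hes1 (-0.08 to 0.75) and 1.44 for Hey1 (-0.40 to 3.28), and it was 0.10 for Jag1 (-1.09 to 1.28) and -0.74 for Dll1 (-3.16 to 1.68). The intervals of the receptors reach past 1 on the log2 scale in both directions for Notch1, Notch2 and Notch3, so an equal response was not shown either. By edgeR 0 of 8 members were called and 0 had an unadjusted p under 0.05, against 0% and 2.32% of all genes, and DESeq2 and limma called 0 members.

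The next comparison set the libraries labelled cKO against Ctrl. In 20% O2 Hey1 was lower in every library labelled cKO, with a log2 difference of -1.61 (SE 0.585, 95% interval -2.89 to -0.34, adjusted p = 0.278 by edgeR), and Dll1 had a log2 difference of 1.67 (SE 0.767, 95% interval 0.0032 to 3.34, adjusted p = 0.348 by edgeR). Notch1, Notch2, Notch3 and Notch4 had log2 differences of -0.63, -0.68, -0.77 and -0.60, with 95% intervals that all spanned 0. Jag1 at -0.09 (95% interval -0.93 to 0.74) and Hes1 at -0.10 (95% interval -0.39 to 0.19) were near 0, and the interval of Hes1 held no change of 1.5-fold or more. By edgeR 0 of 8 members were called, against 0.347% of all genes, DESeq2 called 0, and limma with sample quality weights called 5 (Notch1, Notch2, Notch3, Dll1 and Hey1) among 1585 genes in all. Unadjusted, 2 members (Dll1 and Hey1) had a p under 0.05, against 14.3% of all genes, and the libraries did not overlap for 1 member that was lower (Hey1) and 0 that were higher, against 11.4% and 9.58% of all genes. The median of the members was -0.61, beside 0.03 for all genes.

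In 1% O2 the member that stood lowest in the libraries labelled cKO was Notch4. Its log2 difference from Ctrl was -1.71 (SE 0.481, 95% interval -2.75 to -0.66), with an unadjusted p of 0.00391 and an adjusted p of 0.207 by edgeR, and its libraries did not overlap. DESeq2 gave -1.68 with an adjusted p = 0.0424, which called it among 285 genes in all, and the call was lost with the replicate block (-1.63, adjusted p = 0.0856 by DESeq2). limma with sample quality weights called Notch4 among 1274 genes, and without the shallow library edgeR gave -1.44 with an adjusted p = 0.422. Notch1, Notch2 and Notch3 had log2 differences of -0.59, -0.64 and -0.83, Jag1 of 0.0052, Dll1 of 0.93, Hes1 of 0.24 and Hey1 of -0.18, and every one of these 95% intervals spanned 0. By edgeR 0 of 8 members were called, against 0.0379% of all genes, 1 had an unadjusted p under 0.05, against 16.8%, and 1 was lower and 0 higher without overlap, against 15.2% and 11.7%. The median of the members was -0.39, beside 0.0030 for all genes.

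Averaged over the O2 levels, which takes the libraries as independent although those with the same number may come from the same mouse, Notch4 was again lowest relative to Ctrl, at -1.16 (SE 0.334, 95% interval -1.88 to -0.43, adjusted p = 0.0611 by edgeR). DESeq2 called it, at -1.15 (adjusted p = 0.0123 by DESeq2), among 1274 genes in all, and with the libraries that share a number summed edgeR gave -1.16 (adjusted p = 0.222 by edgeR). Notch2 had a log2 difference of -0.66 (95% interval -1.24 to -0.07, adjusted p = 0.136 by edgeR) and Dll1 of 1.3 (95% interval 0.09 to 2.52, adjusted p = 0.15 by edgeR). Notch1 at -0.61, Notch3 at -0.80 and Hey1 at -0.90 had 95% intervals that just reached 0, and Jag1 at -0.04 and Hes1 at 0.07 were close to it. By edgeR 0 of 8 members were called, against 3.78% of all genes, and 3 had an unadjusted p under 0.05, against 28.5%, while limma with sample quality weights called 6 members among 1684 genes in all. Without replicate 1 of cKO in 20% O2, which was the female library of that group, edgeR called Notch2 (-0.96, adjusted p = 0.0162), Notch3 (-1.21, adjusted p = 0.0336) and Notch4 (-1.24, adjusted p = 0.0422), in a fit that called 1531 genes in all where 599 were called with every library. With Xist as a covariate for sex, 0 were called, and Notch2 was at -0.48 and Hey1 at -0.53. Sex and genotype were only partly separated in this design.

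**Figure D3:**
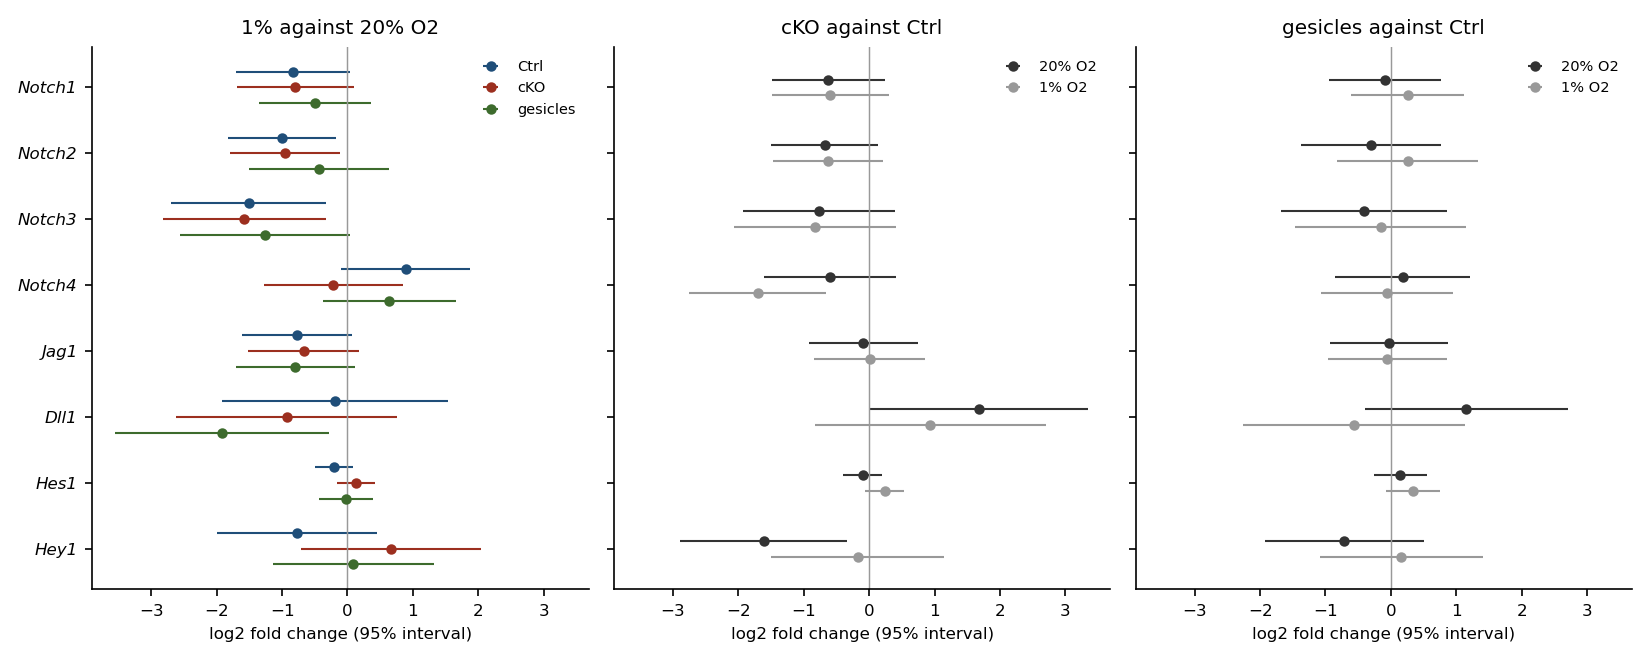
Log2 difference of the 8 tested members with unadjusted 95% intervals, with 1% against 20% O2 in the first panel (Ctrl, cKO and gesicle), and cKO and gesicle against Ctrl at each O2 level in the others, where points are edgeR estimates. Notch1, Notch2, Notch3 and Jag1 lie to the left of 0 in all 3 comparisons of O2, Hes1 has the shortest intervals, and the interval of Notch4 for cKO against Ctrl in 1% O2 runs from -2.75 to -0.66.

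Gesicle-treated TFs were compared with the same Ctrl libraries that served the comparisons above. The fit took the libraries as independent, although gesicle and Ctrl libraries with the same number may come from the same mouse. In 20% O2 Dll1 had a log2 difference of 1.16 (95% interval -0.40 to 2.71) and Hey1 of -0.71 (95% interval -1.92 to 0.50), and the other 6 members lay between -0.41 (Notch3) and 0.18 (Notch4). In 1% O2 Hes1 had a log2 difference of 0.34 (95% interval -0.07 to 0.74), Dll1 of -0.57 (95% interval -2.27 to 1.13), and Notch4 of -0.06 (95% interval -1.07 to 0.95). By edgeR 0 of 8 members were called in either comparison, against 0.0247% and 0% of all genes, and 0 had an unadjusted p under 0.05, against 3.67% and 2%. DESeq2 and limma called 0 members in both. The libraries did not overlap for Hey1 in 20% O2, which was lower, and for Hes1 in 1% O2, which was higher, beside 4.77% of all genes lower and 8.32% higher in 20% O2 and 2.9% lower and 3.47% higher in 1% O2. Within the gesicle groups, 1% against 20% O2 gave -1.92 for Dll1 (SE 0.772, 95% interval -3.56 to -0.28, adjusted p = 0.205 by edgeR), with no overlap between libraries, -1.26 for Notch3 (95% interval -2.57 to 0.04) and -0.80 for Jag1 (95% interval -1.71 to 0.11). Notch1 at -0.50, Notch2 at -0.44, Notch4 at 0.64, Hes1 at -0.02 and Hey1 at 0.09 had intervals that spanned 0. By edgeR 0 of 8 were called, against 2.41% of all genes, 1 (Dll1) had an unadjusted p under 0.05, against 17.3%, and 1 was lower and 0 higher without overlap, against 10.9% and 13.4%, and DESeq2 and limma called 0.

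Across the 18 libraries Notch1, Notch2, Notch3 and Jag1 went up and down together. Pearson's r of their log2 CPM lay between 0.777 (Notch1 with Jag1) and 0.919 (Notch1 with Notch2), and after the mean of each group was taken out it lay between 0.68 and 0.886, so the libraries within a group varied in the same way. Hes1 did not follow them, with r of -0.06 to Notch1, -0.35 to Notch2, -0.30 to Notch3 and -0.26 to Jag1, which within groups were -0.28, -0.61, -0.54 and -0.42. In the same order of genes, r over all libraries was 0.17, 0.19, 0.335 and 0.03 for Hey1. For Dll1 it was -0.01, 0.02, 0.05 and 0.165, so these genes followed them weakly or not at all. Notch4 was between, with r of 0.57 to Notch1 and 0.16 to Jag1, and of 0.75 and 0.44 within groups. These points share libraries and groups, and the values are a description without a test. The 3 receptors concerned have long transcripts, and the mean of the 4 genes followed the median of the 2460 other genes with over 8000 bp of exon with r = 0.922 over the same libraries, and that of the 2651 other genes of over 56% GC with r = 0.155. Jag1, with 5827 bp, is under this cut, and Notch4, with 8061 bp, is over it but was not in the mean. The 4 genes were grouped for varying together in these same libraries. The long genes were themselves lower, with a median log2 difference of -0.19 in Ctrl and -0.22 in cKO for 1% against 20% O2. For cKO against Ctrl their median was -0.23 in 20% O2 and -0.27 in 1% O2. The medians of all genes were 2e-04, -0.03, 0.03 and 0.003 in the same order. When the library-wise trend with GC content and length was taken out of the fit, the averaged cKO against Ctrl differences were -0.12 for Notch1, -0.28 for Notch2, -0.43 for Notch3 and -0.77 for Notch4, and the Ctrl differences between 1% and 20% O2 were -0.60 for Notch1, -0.80 for Notch2 and -1.37 for Notch3. In 1% O2 alone the cKO against Ctrl difference of Notch1 was then -0.03. This fit took out GC content and length together, and the part of transcript length alone in the differences between libraries was not tested.

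**Figure D4:**
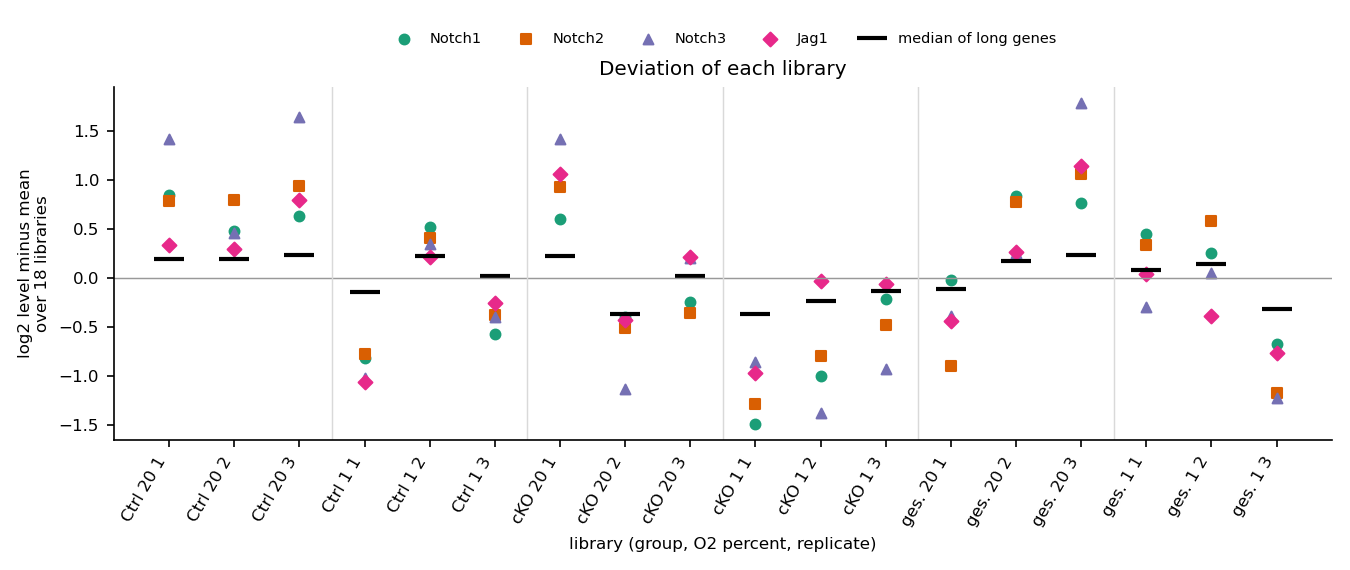
Deviation of Notch1, Notch2, Notch3 and Jag1 from their mean over the 18 libraries, in log2 CPM, beside the median deviation of the 2460 other genes with over 8000 bp of exon, with 1 column per library. The receptors and Jag1 move with the long genes from library to library (r = 0.922 for the mean of the 4), and the deviations of the long genes are smaller.

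The genes whose pattern was most like that of each member, by Pearson's r over the 18 libraries, included Rai1 (0.951) and Tln1 (0.947) for Notch1, and were Atf7 (0.969), Prpf8 (0.963) and Snx30 (0.963) for Notch2. For Notch3 they were Slit2 (0.951), Sptbn1 (0.948) and Arnt2 (0.948), and for Jag1 they were Akap12 (0.944), Ehbp1 (0.938) and Sema3d (0.923). Notch4 was most like Tmem184b (0.911), Pld2 (0.901) and Speg (0.897), and Dll1 was most like Fam111a (0.918), Vav3 (0.880) and F2rl1 (0.869). The likeness was weakest for the targets, with Derl1 (0.840), Sertad1 (0.804) and Gadd45b (0.798) for Hes1, and with Cacnb1 (0.809) and Dlx3 (0.809) among those for Hey1. These are among the highest of all genes tested, picked for that, and the points share libraries.

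The rest of the pathway was read from a list of 67 genes that work with the members, of which 58 were tested. The gene of this list that passed the test in all 3 comparisons of O2, where 1.88% (Ctrl), 2.1% (cKO) and 2.41% (gesicle) of all genes were called, was Lfng, which encodes a glycosyltransferase of the Golgi that adds sugars to Notch receptors and alters their response to ligands. Lfng was at 15.3, 15.2 and 12.6 CPM in Ctrl TFs in 20% O2 and at 3.78, 4.52 and 4.64 CPM in 1% O2. It was at 7.69, 8.59 and 8.14 CPM with the cKO label in 20% O2 and at 3.97, 3.77 and 3.38 CPM in 1% O2. With gesicles it was at 11.6, 12.8 and 10.6 CPM in 20% O2 and at 5.0, 6.16 and 3.58 CPM in 1% O2. Every library in 1% O2 was below every library in 20% O2 of the same kind of cells, and in 20% O2 the libraries labelled cKO were below the Ctrl libraries. Lfng fell by 1.73 on the log2 scale in Ctrl (SE 0.172, adjusted p = 0.000285 by edgeR), by 1.15 in cKO (SE 0.175, adjusted p = 0.00709 by edgeR) and by 1.25 with gesicles (SE 0.185, adjusted p = 0.00147 by edgeR). The calls in cKO and with gesicles were lost when only the groups compared were fitted (adjusted p = 0.0861 and 0.0585 by edgeR). The genotype difference in 20% O2 was -0.80 (adjusted p = 0.0708 by edgeR), and the interaction of genotype and O2 was 0.58 (SE 0.242, unadjusted p = 0.0337, adjusted p = 1 by edgeR).

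In the comparison of cKO with Ctrl averaged over O2, 2 of the 58 tested genes of the list rose and 2 fell, and 3.78% of all genes were called. Furin, the protease that cleaves Notch receptors on their way to the surface, fell by 0.82 (SE 0.200, adjusted p = 0.0415 by edgeR), with 108 to 167 CPM over the 6 Ctrl libraries and 47.6 to 131 CPM over the 6 labelled cKO. Neurl1a, a ubiquitin ligase that promotes ligand uptake, fell by 0.98 (SE 0.188, adjusted p = 0.0185 by edgeR), with 14.1 to 22.1 CPM in Ctrl and 3.83 to 10.2 CPM in cKO, without overlap. Ccn3, a secreted matricellular protein that was described to bind Notch1, rose by 1.11 (SE 0.237, adjusted p = 0.0281 by edgeR), with 63.6 to 241 CPM in Ctrl and 176 to 504 CPM in cKO. Mfap2, a microfibril protein, rose by 1.07 (SE 0.223, adjusted p = 0.0265 by edgeR), with 4.78 to 25.0 CPM in Ctrl and 12.4 to 48.4 CPM in cKO. None of the 4 calls was kept when the libraries that share a number were summed (adjusted p = 0.338, 0.0817, 0.185 and 0.235 by edgeR, in the order given), and those of Furin and Neurl1a were lost with GC content and length taken out. Of the 12 fits that leave out 1 library, 9 lost the call of Furin, 6 that of Mfap2, 4 that of Ccn3 and 1 that of Neurl1a.

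Of the 9 roles in the list, gamma-secretase with 7 of 7 genes tested, the ADAM proteases with 2 of 2, the nuclear complex with 9 of 9, the corepressors with 11 of 11 and turnover and endocytosis with 9 of 10 had 0 genes called in any comparison. The other HES and HEY family and target genes, with 3 of 8 tested, also had 0 called. The calls named above were 2 of 6 tested genes for processing of receptors, 1 of 4 for ligand uptake and 2 of 7 for other ligands and ligand-like genes. The list as a whole had a median log2 difference of 0.0037 for O2 in Ctrl, -0.14 in cKO and 0.03 with gesicles, and of -0.11 for cKO against Ctrl averaged over O2, beside 0.000196, -0.03, -0.02 and 0.02 for all genes. No gene of the list was called for cKO against Ctrl at either O2 level, for gesicle against Ctrl or for the interaction.

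**Figure D5:**
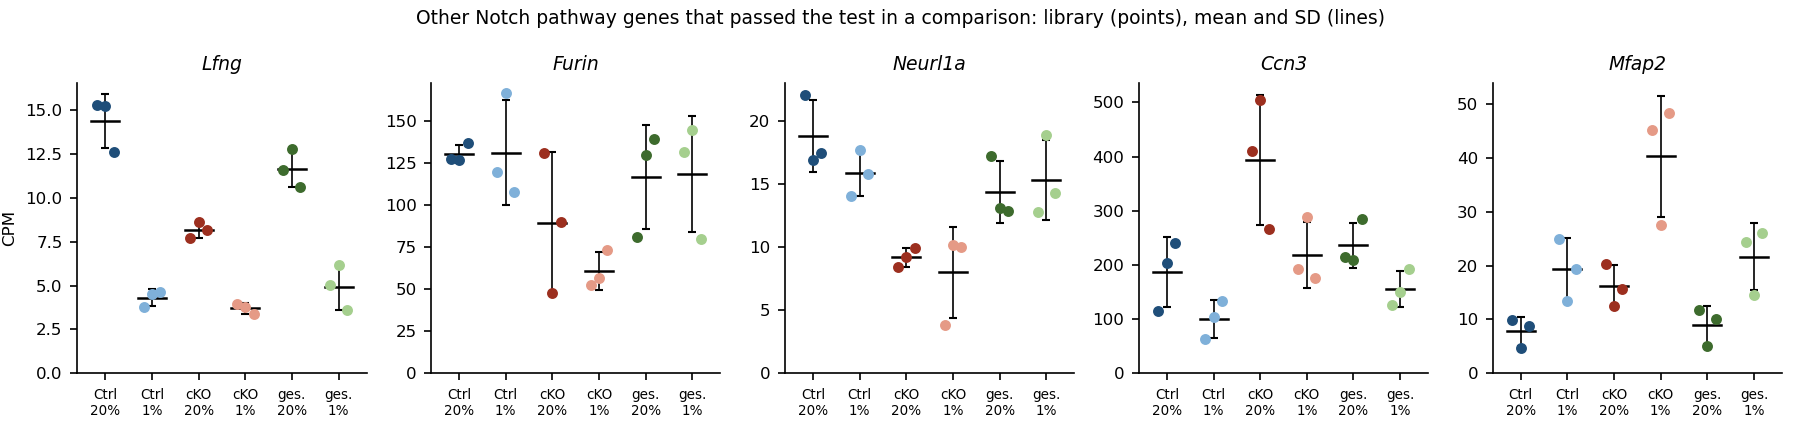
Level in CPM of the 5 pathway genes that were called in a comparison (Lfng, Furin, Neurl1a, Ccn3, Mfap2) in the 18 libraries, by group, with 1 point per library and lines for the mean and SD of the 3 libraries of a group. Lfng is lower in 1% O2 than in 20% O2 in all 9 pairs of libraries with the same number, and Neurl1a is lower in all 6 libraries labelled cKO than in the 6 Ctrl libraries.

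Markers of the labelled cell type were present, with 8 of 8 tendon fibroblast markers in every library. Their sum was 10600 to 12620 CPM in Ctrl and 4147 to 9244 CPM in cKO in 20% O2, without overlap, and 5614 to 13090 CPM and 4916 to 8471 CPM in 1% O2. With gesicles it was 7756 to 11100 CPM and 7954 to 14550 CPM. Of all genes, 11.4% were lower in cKO in 20% O2 without overlap. Col1a1 and Col1a2 reached the highest levels of the list, 8249 and 4585 CPM. In 20% O2 the log2 difference, cKO against Ctrl, was -1.15 for Col1a1, -0.35 for Col1a2 and -0.30 for Fmod. It was 0.07 for Scx, 0.85 for Tnmd, 0.59 for Mkx, 0.20 for Thbs4 and 0.16 for Pdgfra, and none of the list was called. The part of these sums in the differences of the members between cKO and Ctrl was not tested. In bulk RNA, fewer cells of a type and less RNA per cell cannot be told apart. Of the 8 endothelial markers, Cldn5 was at 0 in all 18 libraries, Tie1, Emcn and Erg had at most 2 reads, Pecam1, Cdh5 and Kdr at most 26, and Tek, at 11.3 to 75.6 CPM, made up nearly all of the sum. The mural list, which is the one closest to Notch3, had 7 of 7 markers with reads and a mean sum of 449 CPM in Ctrl in 20% O2, 322 CPM in Ctrl in 1% O2, 290 CPM and 188 CPM in cKO, and 401 CPM and 335 CPM with gesicles, with 151 to 538 CPM over all libraries. Pdgfrb, at 115 to 413 CPM, was the most abundant of this list and weighed most in the sum, while Kcnj8 and Abcc9 reached at most 1.66 and 0.705 CPM. The 3 mural markers called lower in cKO against Ctrl averaged over O2 were Rgs5 (-0.77), Cspg4 (-1.46) and Myh11 (-1.39), where 3.78% of all genes were called. Of the others in the list, Pdgfrb (-0.55) and Mcam (-0.48) were lower and Kcnj8 (0.87) and Abcc9 (0.18) higher, with none called. Rgs5 was called higher (1.09) and the endothelial marker Kdr lower (-4.28) in 1% against 20% O2 with gesicles, where 2.41% of all genes were called. The part of mural marker content in the differences of Notch3 and Jag1 was not tested. Leukocyte markers summed to 19.3 to 37.4 CPM with at most 5 reads of Ptprc, Schwann cell markers to 5.33 to 15.9 CPM, skeletal muscle markers to 1.72 to 7.48 CPM with Pax7 at 0, and keratinocyte markers to 0 to 0.499 CPM.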

How the data were processed

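The deposited gene table holds estimated counts, which the authors made with RSEM 1.3.3 after trimming with cutadapt 4.8 and alignment with STAR 2.7.8a to GRCm38 (tools from the submitters' processing notes, which also name FastQC 0.11.8 and MultiQC 1.20). The values are whole numbers and are not normalized, and each of the 18 columns was matched to its library by name. No 2 libraries of a group were duplicates (smallest chi-square per degree of freedom 15.4).

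The counts were tested with edgeR 4.0.16 in R 4.3.3 (quasi-likelihood F test, TMM factors of 0.949 to 1.066, filterByExpr by group, 1 coefficient per group), with Benjamini-Hochberg adjustment over all genes tested. Ctrl and cKO were fitted over 12 libraries and 15850 genes, and the gesicle comparisons over 18 libraries and 16174 genes. SE is the log2 difference divided by the square root of F. DESeq2 1.42.0 and limma 3.58.1 were alternatives, beside other scaling and filters, thinned counts, offsets for GC content and length (a spline with 4 df), Xist as a covariate, the replicate number as a block and fits without each library, and the scripts were tested on simulated counts. Figures and tables used Python 3.11.15, pandas 2.3.3 and matplotlib 3.10.9. CPM were scaled by TMM over 18 libraries. Exon lengths came from GENCODE M21, and 99.88% of the genes had a GC content and length there.

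The members, the pathway list and the marker lists were chosen with earlier results of these data known. Named genes are the 10 members, Hif1a, each pathway gene called in a comparison, up to 12 per comparison, and the 3 genes most like each member (log2 CPM with a prior count of 2), of which 2 are not reported here. Samples with the same replicate number deviated together, with a correlation over 0.1 for each pair, in Ctrl across O2 (0.271 to 0.458) and in gesicle against Ctrl (0.346 to 0.462 in 20% O2, 0.193 to 0.284 in 1% O2), and not in all pairs of the other comparisons. The pairing comes from the numbers in the sample titles.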

Additional observations from a re-analysis of the deposited data

How the results depend on the processing

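With 3 libraries per group the intervals of Dll1, Hey1 and Notch4, which had at most 117 reads in a library, were wide. Jag2 and Dll4 were below the filter at this depth, so the main fits made no test of them. Of 1314 values of single genes under an alternative, 1207 kept their direction and their side of the threshold, 32 lost a call, 29 gained one and 46 turned direction. The blocks within genotype or treatment were chosen after seeing the data. No cause of a change was tested.

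Counts of members called, 0 by edgeR as reported, were 1 by DESeq2 for 1% against 20% O2 in cKO, for cKO against Ctrl in 1% O2 and for cKO against Ctrl averaged over O2. With the replicate number as a block, DESeq2 called 2 members for O2 in Ctrl and 1 (Notch4, -1.12, adjusted p = 0.028 by DESeq2) for the averaged comparison, and edgeR called 0 in all comparisons. The block ended the DESeq2 calls of Notch3 for O2 in cKO and of Notch4 for cKO against Ctrl in 1% O2, and changed no call of a member by edgeR. With no filter 1 was called for the averaged comparison (Notch4, adjusted p = 0.0442 by edgeR). limma with sample quality weights called 3 for O2 in Ctrl, 2 for O2 in cKO, 5 and 1 for cKO against Ctrl in 20% and 1% O2, and 6 for the averaged comparison. Leaving out a library in turn gave 0 to 1 for O2 in cKO and 0 to 3 for the averaged comparison, where without replicate 3 of cKO in 1% O2 Notch4 was called (-1.48, adjusted p = 0.0491 by edgeR) among 353 genes in all.

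Counts over all genes moved by more than 1.5 times as follows. DESeq2 called 692 genes for O2 in Ctrl, 888 for O2 in cKO, 434 and 285 for cKO against Ctrl in 20% and 1% O2, 1274 for their average, 2 for the interaction, 46 for gesicle against Ctrl in 20% O2 and 731 for O2 with gesicles. With the replicate block DESeq2 called 937, 1035, 456, 277, 1247, 4, 59 and 948 in the same order, and 1 for gesicle against Ctrl in 1% O2. limma with sample quality weights called 1543, 2718, 1585, 1274 and 1684 for the first 5 of these, 11 for gesicle against Ctrl in 20% O2 and 746 for O2 with gesicles. With GC and length offsets edgeR called 483 for O2 in Ctrl, and 140 and 13 for cKO against Ctrl in 20% and 1% O2. Offsets with the replicate block gave 151 and 20 there and 631 for O2 with gesicles, and with the block within genotype or treatment 692 for O2 in Ctrl, 840 in cKO and 714 with gesicles. No filter gave 511 for O2 in cKO, 281, 111 and 1190 for cKO against Ctrl in 20% O2, in 1% O2 and averaged, and 23 for gesicle against Ctrl in 20% O2. Only the groups compared gave 84 for O2 in cKO, 1 and 0 for cKO against Ctrl in 20% and 1% O2, 1 for gesicle against Ctrl in 20% O2 and 120 for O2 with gesicles, and a fit of all 18 libraries gave 87 and 14 for cKO against Ctrl. For cKO against Ctrl in 1% O2 and averaged, the replicate block gave 2 and 358 and Xist as a covariate 15 and 328, and summing the libraries that share a number gave 25 for the average.

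Without 1 library, 116 to 261 genes were called for O2 in Ctrl, 98 to 1373 for O2 in cKO (1373 without replicate 2 of cKO in 20% O2), 1 to 154 and 0 to 6 for cKO against Ctrl in 20% and 1% O2, 137 to 1531 for their average (1531 without replicate 1 of cKO in 20% O2), 0 to 1 for the interaction, 0 to 2 for gesicle against Ctrl in 20% O2 and 148 to 346 for O2 with gesicles.

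The direction turned for the following values, none of which was called by edgeR with every library. With counts thinned to the smallest library, Dll1 for O2 in Ctrl was 0.16 and Jag1 for cKO against Ctrl in 1% O2 was -0.062. With limma, Hey1 was -0.11 for O2 in cKO and -0.20 with gesicles, Hes1 was 0.10 for O2 with gesicles, and Jag1 was 0.0065 for the averaged comparison. With GC and length offsets, alone and with the replicate block, Notch4 for O2 in cKO was 0.033 and 0.12, and for the averaged comparison Jag1 was 0.095 and 0.11 and Hes1 -0.10 and -0.10, and with both Jag1 was 0.027 for cKO against Ctrl in 20% O2. With Xist as a covariate Jag1 was 4e-04 in 20% O2 and 0.14 averaged, and Hey1 was 0.23 in 1% O2. Jag1 averaged was 0.13 with libraries that share a number summed. With the replicate block Jag1 for cKO against Ctrl in 1% O2 was -2e-04 by edgeR and -0.0059 by DESeq2, and for O2 with gesicles DESeq2 gave 0.018 for Hes1 and -0.043 for Hey1. With the block within treatment these were 0.031 and -0.0098, and -0.026 for Hey1 with the offsets too.

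Without 1 library, Dll1 for O2 in Ctrl ranged from -0.77 to 1.12, and for O2 in cKO Notch4 ranged from -0.85 to 0.05 and Hey1 from -6e-04 to 1.07. For O2 with gesicles Hes1 ranged from -0.22 to 0.30 and Hey1 from -0.37 to 0.50. For cKO against Ctrl Jag1 ranged from -0.57 to 0.19 in 20% O2, from -0.27 to 0.33 in 1% O2 and from -0.28 to 0.12 averaged, and Hey1 from -0.85 to 0.38 in 1% O2.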
